A study of Rattus norvegicus with 2 samples.

Results

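The neuron-linked genes Rem2, Nyap1, Wasf1, Ypel4, Armcx2, Prr36 and Tspan18 were examined in rat esophagus after the histone deacetylase inhibitor OSU-HDAC42. They were chosen by how far their intensity on the OSU-HDAC42 array exceeded that on the vehicle array, so the size of that difference describes the choice and is no finding. A probe set, the group of short oligonucleotides that reads a transcript on the array, counted for a gene when the platform annotation tied it to that gene symbol alone. The 7 genes, of 14217 measured, had 8 such probe sets: 2 for Rem2 and 1 for each of the others. No probe set with several gene symbols listed any of them.

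The arrays, Affymetrix Rat Genome 230 2.0 per the series' design text, held RNA from male Sprague-Dawley rats, an outbred strain, bought at 5 to 6 weeks of age. The treated group received 7 gavage doses of OSU-HDAC42 at 50 mg/kg, 350 mg/kg in all, and the control group received vehicle by the same route. Esophagus was collected on day 15, which was 24 hours after the last dose. Each group had 1 array, and the labels do not give the number of rats behind it or the layers of the esophagus taken. There was no replicate, so no difference below has a standard error or a p-value, and variation between rats cannot be estimated.

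Histone deacetylases remove acetyl groups from histones, and inhibitors of them raise or lower the transcription of many genes. Some neuronal genes are held silent outside the nervous system by the repressor REST, which recruits deacetylases through the corepressors CoREST and SIN3A. The esophageal wall contains neurons and glia of the myenteric plexus and nerve endings on its muscle, so a neuron-linked transcript in this tissue can come from nerve cells or from other cells. In bulk tissue such as this, more cells of a type and more RNA per cell cannot be told apart.

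On the brightest probe set of each gene, all 7 were brighter on the OSU-HDAC42 array, at 123 to 367 against 22.1 to 86.2 for vehicle. Intensities are the deposited values on a linear scale, values under 16 were raised to 16 before log2 was taken, and differences are log2 OSU-HDAC42 minus log2 vehicle. The expression floor was 49.1, the median probe set intensity over both arrays. On the vehicle array, 5 of the 7 genes lay under that floor, while all 7 exceeded it on the OSU-HDAC42 array. The median probe set of the vehicle array was itself at 49.1, and the members were picked on this contrast. Nothing is therefore read from these counts.

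Rem2, a small GTPase that inhibits voltage-gated calcium channels, stood at 288 after OSU-HDAC42 and 28.2 after vehicle. Its difference was 3.35, or 10.2-fold. Nyap1, an adapter that links the kinase Fyn to phosphoinositide 3-kinase in neurons, stood at 243 against 31.0, a difference of 2.97 (7.84-fold). Both were under the floor after vehicle, and theirs were the 2 widest gaps of the 7.

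Wasf1, which encodes WAVE1, an activator of actin branching abundant in brain, stood at 311 against 54.6 (2.51, 5.69-fold). Ypel4, a small zinc-binding protein of the Yippee-like family, stood at 125 against 22.1 (5.64-fold). Armcx2, an X-linked armadillo repeat protein, stood at 367 against 86.2 (2.09, 4.26-fold). Wasf1 and Armcx2 were the only members of the 7 that already reached the floor on the vehicle array.

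Tspan18, a membrane protein of the tetraspanin family, stood at 123 against 29.1 (2.08, 4.23-fold). Prr36, a proline-rich protein whose function is little known, stood at 151 against 37.9 (2.00, just under 4-fold). Over the 7 genes the median difference was that of Ypel4, against -0.027 over the 9560 genes above the floor.

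**Figure D1:**
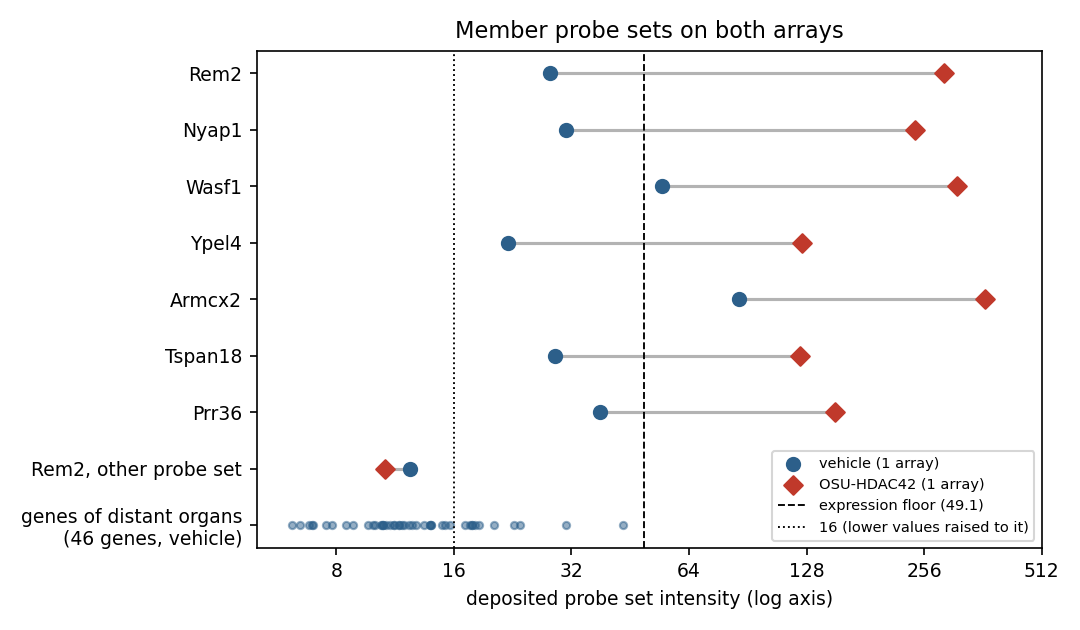
Deposited intensity (log axis) of each of the 8 member probe sets on the vehicle array (circles) and the OSU-HDAC42 array (diamonds), with 46 genes of distant organs on the vehicle array in the lowest row. On 7 probe sets the OSU-HDAC42 point lies to the right, between 123 and 367, whereas the other Rem2 probe set stays under 16 on both arrays.

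Rem2 was the member whose probe sets disagreed. Its second probe set, the only one of the 8 annotated with a RefSeq transcript, gave 10.7 after OSU-HDAC42 and 12.4 after vehicle. Both values are under 16, so no difference could be measured there, and without raising the values it was -0.21. The mean over both Rem2 probe sets was 1.67, which places the gene at rank 19 in place of rank 2. Which parts of the transcript the probe sets read is not given in the sources used here. The other 6 genes rest on 1 probe set each and have no second reading.

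To set the vehicle intensities against background, genes typical of distant organs, such as Alb of liver, Ins1 of pancreas and Prm1 of testis, were read on the same arrays. Of the 46 measured, all lay under the floor on both arrays. Their vehicle intensities had a median of 11.9, quartiles of 10.2 and 15.5, and a highest value of 43.4, for the liver enzyme Cyp2c11. The brightest member probe sets had vehicle intensities from 22.1 for Ypel4 to 86.2 for Armcx2, all above the upper quartile of that list. For Ypel4, Rem2, Tspan18, Nyap1 and Prr36 the vehicle value was below its highest value. Probe sets differ in how strongly they bind, so these levels place each probe set on the array and do not rank the genes by transcript number.

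Among all non-control probe sets of the vehicle array, the 7 stood between the 36.7th percentile (Ypel4) and the 58.1st (Armcx2). On the OSU-HDAC42 array they stood between the 63.6th (Tspan18) and the 78.5th (Armcx2). Because the members were picked on this contrast, nothing is read from their higher places on the OSU-HDAC42 array.

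By size of difference, the members held ranks 2, 3, 5, 6, 10, 11 and 12 among genes above the floor. Harbi1 at 3.75, Bmal1 at 2.53, Pde4c at 2.30, Sprr1b at 2.21 and Serpina12 at 2.16 filled the other places, and Chct1 at 1.94 came next after Prr36. All 7 members were at least 2-fold higher, as were 1.88% of genes above the floor (180 of 9560), and since the members were picked on this contrast nothing is read from that. By probe set, 7 of the 8 were at least 2-fold higher, beside 2.06% of the 12343 probe sets above the floor. Between vehicle intensities of 22.1 and 86.2, the span of the members, lay 2634 genes, with a median difference of -0.0035 and an SD of 0.53 between genes. In this span 7 genes were at least 4-fold higher, and 6 of them were members. Because the members were picked on this contrast and their vehicle values set the span, nothing is read from that count.

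**Figure D2:**
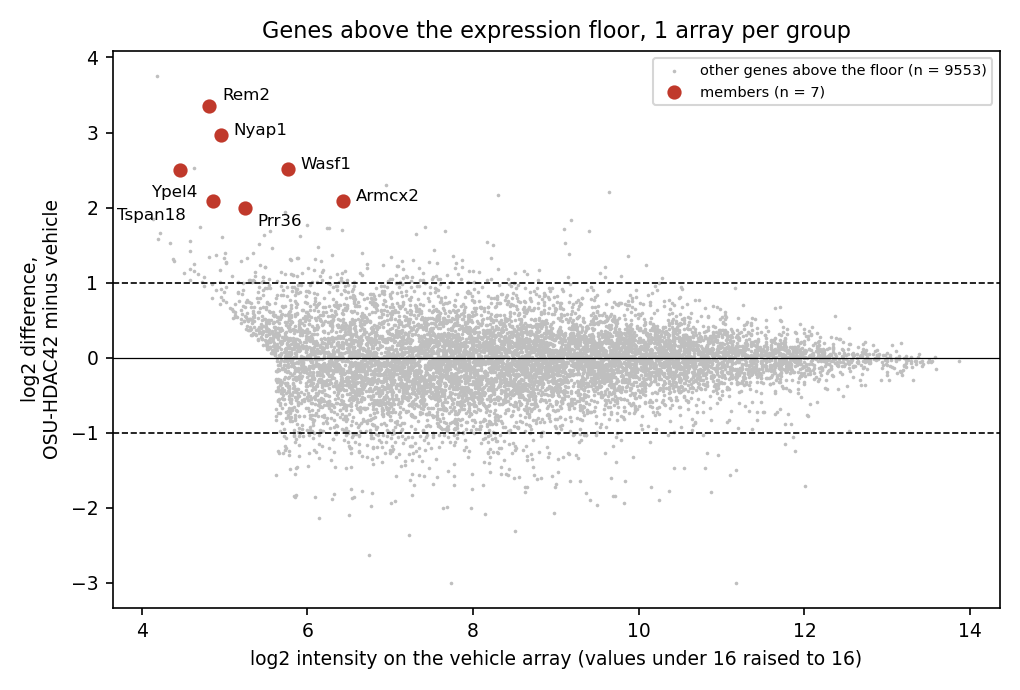
Difference in log2 intensity (OSU-HDAC42 minus vehicle) against log2 intensity on the vehicle array for the 9560 genes above the floor, with the 7 members in red and dashed lines at 2-fold. The members lie at the left and top, at differences from 2.00 to 3.35, and the slanted lower left edge is made by the floor itself.

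Genes nearest to a member in the plane of both arrays' log2 intensities were sought as the closest match in pattern, over 2 arrays only. The other members were left out, as were genes whose symbol was LOC or RGD followed by a number. Bmal1, an activator of the circadian clock, was nearest to Ypel4 (distance 0.26) and to Tspan18 (0.31), at 143 against 24.7. Harbi1, a gene derived from a transposase, was the nearest of the genes kept to Rem2 (0.68) and to Nyap1 (0.77). Fbxo44, an F-box protein, was nearest to Prr36 (0.27), Dixdc1, a protein of Wnt signalling, to Wasf1 (0.56) and Fam111a to Armcx2 (0.40). Between members, Rem2 and Nyap1 lay 0.28 apart, nearer than either lay to Harbi1, and Ypel4 and Tspan18 lay 0.40 apart. The members were picked on these same 2 arrays, so their closeness to each other is no finding.

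The promoter windows of the members, from RefSeq on the rat assembly GRCr8, were of different kinds. All 7 genes had a window of 250 bases before and 50 after an annotated start site, and Prr36 had 4 overlapping or neighbouring windows, so 10 windows were read. The array's probes were not tied to these start sites. The 250 upstream bases are shown for the 4 members with the largest differences on their brightest probe sets. These stretches hold both kinds, rich and poor in CpG, the dinucleotide that DNA methylation acts on. Capitals mark matches on either strand to the letters of the motifs named after them. The Rem2 stretch is chr15:31903722-31903971, plus strand, Nyap1 is chr12:24592814-24593063, plus strand, Wasf1 is chr20:45908208-45908457, plus strand, and Ypel4 is chr3:90222612-90222861, plus strand.
Rem2: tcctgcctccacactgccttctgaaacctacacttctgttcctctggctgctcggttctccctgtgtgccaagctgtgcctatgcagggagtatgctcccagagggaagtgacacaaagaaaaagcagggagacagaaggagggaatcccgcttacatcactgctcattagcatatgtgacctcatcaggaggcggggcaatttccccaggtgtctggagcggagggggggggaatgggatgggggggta
Nyap1: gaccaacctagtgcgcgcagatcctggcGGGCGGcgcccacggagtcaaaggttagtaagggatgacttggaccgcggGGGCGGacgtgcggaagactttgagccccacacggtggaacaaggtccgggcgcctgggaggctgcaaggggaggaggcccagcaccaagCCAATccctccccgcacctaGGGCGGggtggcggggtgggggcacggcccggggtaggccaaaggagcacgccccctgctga
Wasf1: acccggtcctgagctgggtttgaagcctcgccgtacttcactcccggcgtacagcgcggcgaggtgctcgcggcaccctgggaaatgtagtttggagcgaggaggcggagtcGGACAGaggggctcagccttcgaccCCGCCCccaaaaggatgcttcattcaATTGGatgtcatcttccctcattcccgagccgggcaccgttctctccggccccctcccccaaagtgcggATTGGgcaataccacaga
Ypel4: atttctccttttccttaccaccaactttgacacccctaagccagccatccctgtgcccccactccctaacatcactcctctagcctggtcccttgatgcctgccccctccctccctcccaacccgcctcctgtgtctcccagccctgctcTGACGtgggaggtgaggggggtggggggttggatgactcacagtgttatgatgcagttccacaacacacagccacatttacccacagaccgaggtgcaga

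The observed over expected CpG ratio was 0.80 for Wasf1, 0.75 for Tspan18, 0.70 for Nyap1 and 0.70 for 1 of the 4 Prr36 windows. It was 0.45 for Armcx2, 0.22 for Rem2 and 0.13 for Ypel4, and from 0.29 to 0.30 for the other 3 Prr36 windows. Over all 33469 windows the median was 0.39, with quartiles of 0.19 and 0.73. GC content ran from 52.7% to 69.7% in the members' windows, each above the median of 51.7% over all windows. A high CpG ratio was therefore not shared by all members: Rem2 and Ypel4 were both under the median.

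The GC box GGGCGG, bound by Sp1 family factors, was found in the windows of 4 of the 7 genes and in 33.1% of all windows. Nyap1 and Tspan18 had 3 matches each, Wasf1 had 1 and each Prr36 window had 1, while Rem2, Ypel4 and Armcx2 had none. The letters CCAAT occurred in Nyap1, Wasf1 and 3 of the 4 Prr36 windows (37.5% of all windows). TATAAA occurred in none of the members' windows (14.2%).

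The letters GGACAG, part of the REST element, were matched in Wasf1, once at 138 bases before the start site and once at base 7 after it, and in Ypel4 at base 27 after it, beside 21.7% of all windows. TGACG, part of a cAMP response element, was found in Ypel4 at 100 bases and in Armcx2 at 64 bases before the start site (21.2% of all windows). The E-box CACGTG was found in Armcx2, 79 bases before the start site, and in 6.42% of all windows. No listed motif was matched in the Rem2 window. Each match describes letters in a window and is no evidence of binding, and a missing match covers only this window. Of the motif letters, no 2 kinds of match overlapped in the stretches shown.

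**Figure D3:**
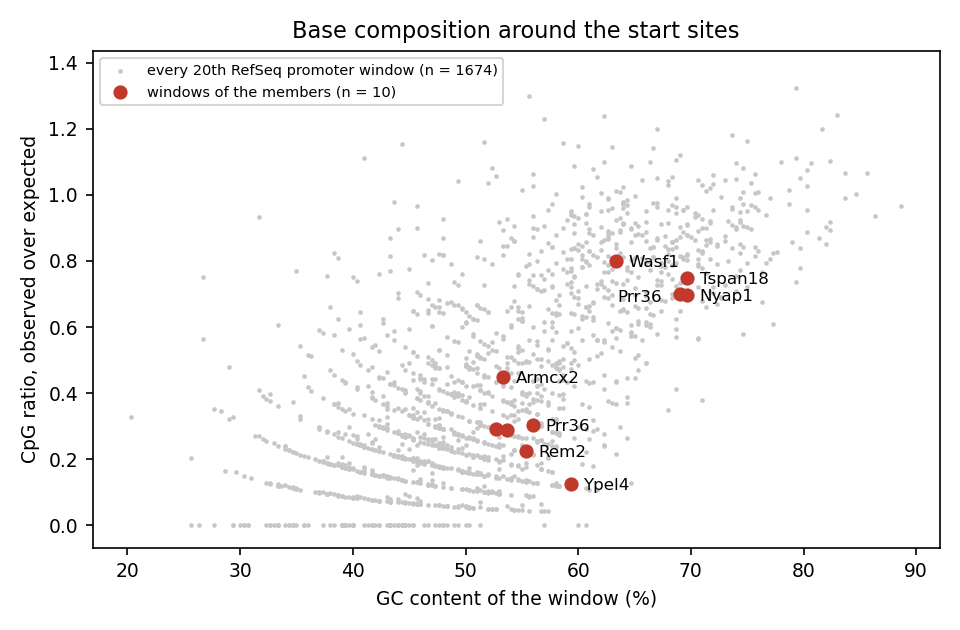
CpG ratio (observed over expected) against GC content in percent, for the 10 windows of the 7 members (red) and every 20th RefSeq promoter window (grey). Wasf1, Tspan18, Nyap1 and 1 Prr36 window lie near ratios of 0.70 to 0.80, and Rem2, Ypel4, Armcx2 and the other Prr36 windows lie lower.

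The families of the members were read next, from lists of relatives and partners. RGK GTPases, the family of Rem2, bind the beta subunits of voltage-gated calcium channels and reduce calcium entry. All 4 were measured. Gem, which like Rem2 was higher, stood at 138 against 55.3, a difference of 1.32 (2.49-fold). Rrad stood at 30.7 against 17.8, under the floor on both arrays, with a difference of 0.79 that became 0 when values under 32 were raised to 32. Rem1 held the same deposited value, 37.6, on both arrays on its brighter probe set and was under 16 on both on the other. Apart from Rem2, which was selected for its difference, Gem was the 1 family gene of 3 above the floor, and the median of the 3 was 0.79, the value of Rrad. The share of all genes over the floor with a gap as wide as 2-fold in this direction was 1.88%.

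The channel subunits that RGK proteins act on differed in both directions. Of 13 measured, 6 reached the floor, with 3 higher, 3 lower and a list median of 0.038. Those at least 2-fold higher numbered 2, beside 1.88% of all genes above the floor. The beta subunit Cacnb2 stood at 59.2 against 24.9 (1.25), and Cacnb3 at 82.7 against 40.5 (1.03). Cacnb2 was no longer 2-fold higher with values under 32 raised to 32 (0.89) or over the mean of its 3 probe sets (0.60). The pore subunit Cacna1c, known from smooth muscle and heart, stood at 112 against 63.4 (0.83), and its other probe set held equal values on both arrays. Cacna1s, the pore of skeletal muscle, went the other way, at 32.8 against 61.2 (-0.90), as did Cacna2d1 (-0.68) and Cacnb1 (-0.47).

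Nyap1 binds phosphoinositide 3-kinase and the WAVE1 complex in neurons, where it takes part in neurite outgrowth. Of the 8 other measured genes of its list, 4 were above the floor, none was at least 2-fold higher, and the median was 0.024. Fyn, the kinase that phosphorylates it, stood at 851 against 629 (0.44). The catalytic subunit Pik3ca differed by -0.085, the regulatory subunit Pik3r2 by -0.019 and Acot9, a thioesterase, by 0.048. Its relative Myo16, at 20.9 against 19.9, was under the floor on both arrays. None of these partners differed by as much as 2-fold.

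Wasf1 passes signals from the GTPase Rac to the Arp2/3 complex, which starts branched actin filaments. Of the 5 other measured genes of the WASP and WAVE family, 4 were above the floor, none was at least 2-fold higher, and the median was 0.12. Wasf2, the widely expressed relative, stood at 110 against 92.3 (0.26), and Wasl, or N-WASP, at 3145 against 2892 (0.12) on the brightest of its 3 probe sets, with 0.068 and -0.26 on the others. Wasf3 was under the floor at 22.2 against 19.0. Whamm held 53.4 on both arrays. Washc1, which acts on endosomes, stood at 46.2 against 93.9 (-1.02) and lay just inside 2-fold lower, beside 3.17% of genes above the floor. With quantile normalization its difference was -0.99.

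The partners that WAVE proteins need were read next, with no comparison to Wasf1, which was picked for its difference. None of the 9 measured members of the WAVE complex list was 2-fold different, and the list median was 0.0036. Abi2 stood at 958 against 571 (0.75), Abi3 at 56.7 against 82.5 (-0.54), Nckap1l, the form of blood cells, at 54.5 against 38.8 (0.49) and Abi1 at 2972 against 2369 (0.33). The 8 measured subunits of the Arp2/3 complex all reached the floor (4 higher, 4 lower), with a median of 0.034. Arpc1b at 0.23 and Arpc4 at 0.20 were the highest of them, and Arpc2 at -0.19 and Arpc5l at -0.18 the lowest.

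Neither relative of Ypel4 above the floor was higher. The Yippee-like proteins are a small family of highly conserved zinc-binding proteins, and all 5 genes were measured. Ypel3, described as a growth suppressor, stood at 286 against 303 (-0.085), and Ypel5 at 3096 against 3363 (-0.12) on its brightest probe set and at 0.10 on the other. Ypel1 (22.1 against 24.1) and Ypel2 (17.7 on both arrays) were under the floor. The median of the 4 relatives was -0.10.

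Armcx2 belongs to a group of X-linked genes whose products, among them Armcx1 and Armcx3, sit on mitochondria and take part in their transport along axons. Of the 9 other genes of the ARMCX and GPRASP list, 7 were above the floor, and of these 6 were higher and 1 was lower (median over the 9, 0.21). Armcx3 stood at 495 against 246 (1.01), just past 2-fold on its brighter probe set, and at 12.5 against 9.60 on its other, so the mean over both was 0.50. Armc10 differed by 0.67 and Armcx1 by 0.50, Armcx5 by 0.21, Gprasp2 by 0.16 and Gprasp1 by 0.014. Armcx4 was lower, at 70.5 against 103 (-0.55). The directions of Armcx1, Armcx3, Armcx4 and Armc10 were the same under each scaling of the arrays that was run.

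Among the remaining genes of this list, Armcx6 (20.3 against 14.0) and Gprasp3 (10.7 against 14.6) were under the floor. The adapters and motors that move mitochondria were near 0 as a list (9 measured, median -0.030, none 2-fold different). In that list Trak1 stood at 0.32, Kif5b at -0.18, Trak2 at 0.12 and the Miro GTPase Rhot1 at -0.098. The neuronal kinesins Kif5a and Kif5c were under the floor on both arrays.

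Tspan18 is a tetraspanin, one of the membrane proteins that organise other proteins in clusters, and has been linked to the calcium channel Orai1 in endothelial cells. Of 25 other tetraspanin genes measured, 18 reached the floor, with 9 higher and 9 lower, none by 2-fold, and a median of 0. The largest differences among them were Tspan8 at -0.79, Tspan2 at 0.73, Tspan15 at 0.72 and Tspan13 at -0.70. For store-operated calcium entry, Orai1 differed by 0.21, Orai2 by -0.67, Orai3 by 0.19, the sensor Stim1 by -0.030 and Stim2 by 0.095 (5 measured, median 0.095). Prr36 has no family list here, because no close relative was known with certainty.

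**Figure D4:**
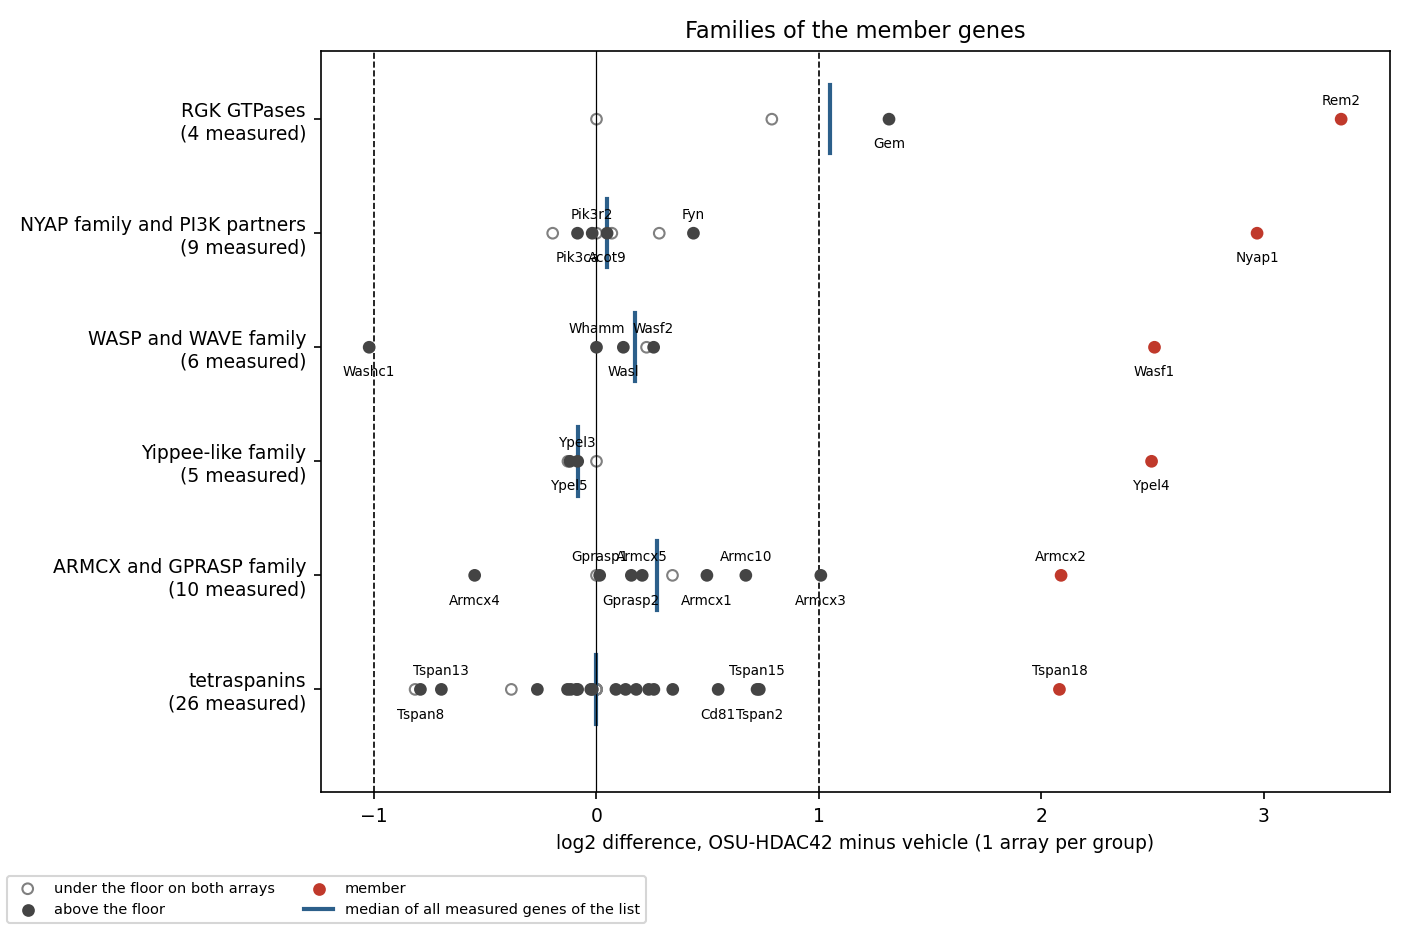
Log2 difference (OSU-HDAC42 minus vehicle, 1 array per group) of each measured gene in 6 family lists, with members in red, genes under the floor as open circles, the list median with the member included as a blue bar and dashed lines at 2-fold. Each of the 6 members shown lies at 2.08 or more, but the members were picked on this contrast. Their distance from the relatives is therefore no finding. Apart from Gem at 1.32 and Armcx3 at 1.01, no relative in these lists passes 1. Few genes do so on these arrays: the share is 1.88% of the 9560 over the floor.

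The label of the 7 genes as neuron-linked was set against markers of nerve cells. No pan-neuronal marker was 2-fold different. Of 19 measured, 6 reached the floor (3 higher, 3 lower), and the median over the list was 0. Their summed intensity was 1140 after OSU-HDAC42 and 1351 after vehicle. Map2 and Nefh, both lower, were the largest parts of each sum, so the sums do not speak for the other markers. Nefh stood at 139 against 218 (-0.65), Tubb3 at 55.2 against 40.3 (0.46), Rbfox3 at 59.3 against 44.2 (0.42) and Map2 at 500 against 642 (-0.36). The synaptic genes Snap25, Syt1 and Syn1 were under 16 on both arrays.

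Markers of enteric and autonomic neurons were under the floor. Of 13 measured none reached the floor on either array, 10 were under 16 on both, and the highest vehicle value was 27.5, for Ret. Their summed intensity was 156 against 169. Of 9 glia and Schwann cell markers, Pmp22, which other cells also express, was the single gene above the floor (1159 against 817, 0.51). Gfap, Sox10, Mag and Foxd3 were under 16 on both arrays. The list sum was 1329 against 991, most of it from Pmp22 on each array. The part of nerve cells in the difference of the 7 genes was not tested.

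REST targets were read as the neuronal genes that deacetylases are known to help silence. Of 30 measured, 26 were under the floor on the vehicle array and 16 were under 16 on both arrays. Of the 5 above the floor none was at least 2-fold higher, and the adhesion molecule L1cam was lower, at 34.6 against 70.7 (-1.03). Tubb3 differed by 0.46, Mapk8ip1 by -0.39 and Bdnf by 0.32, and the list median was 0. That median was fixed by the raising of low values, which gave the 16 genes under 16 on both arrays a difference of 0. Without raised values it was 0.11. Rest itself stood at 75.5 against 55.2 (0.45), its corepressors Rcor1 at 262 against 146 (0.84) and Rcor2 at 54.6 against 31.1 (0.81), and Hmg20b at -0.35. Of the 11 genes of the REST corepressor list none was 2-fold different above the floor, and the median was 0.20.

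Other cell types differed between the arrays, and their part in the difference of the 7 genes was not tested. Skeletal muscle fibre markers were lower in all 23 cases above the floor (24 measured, median -1.21), with summed intensities of 21054 against 41850. Smooth muscle markers were higher in 12 of 12 (median 0.56, sums 25928 and 18431), and fibroblast markers in 9 of 10 (median 0.46, sums 21599 and 16978). Endothelial markers, of the cell type in which Tspan18 is best known, were lower in 9 of 13 (median -0.47, sums 3573 and 3779), from -0.95 for Vwf and -0.90 for Ramp2 to 0.32 for Pecam1 and 0.34 for Kdr. Esam (0.27) and Eng (0.16) were the other higher ones, and with the mean over all probe sets the median was -0.26. Squamous epithelium markers were higher in 4 of 11 and lower in 7 (median -0.022, sums 84138 and 86570). Red cell markers had 6 measured genes, of which Hbb (-1.39) and Sptb (-1.27) were above the floor and lower (sums 402 and 970).

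**Figure D5:**
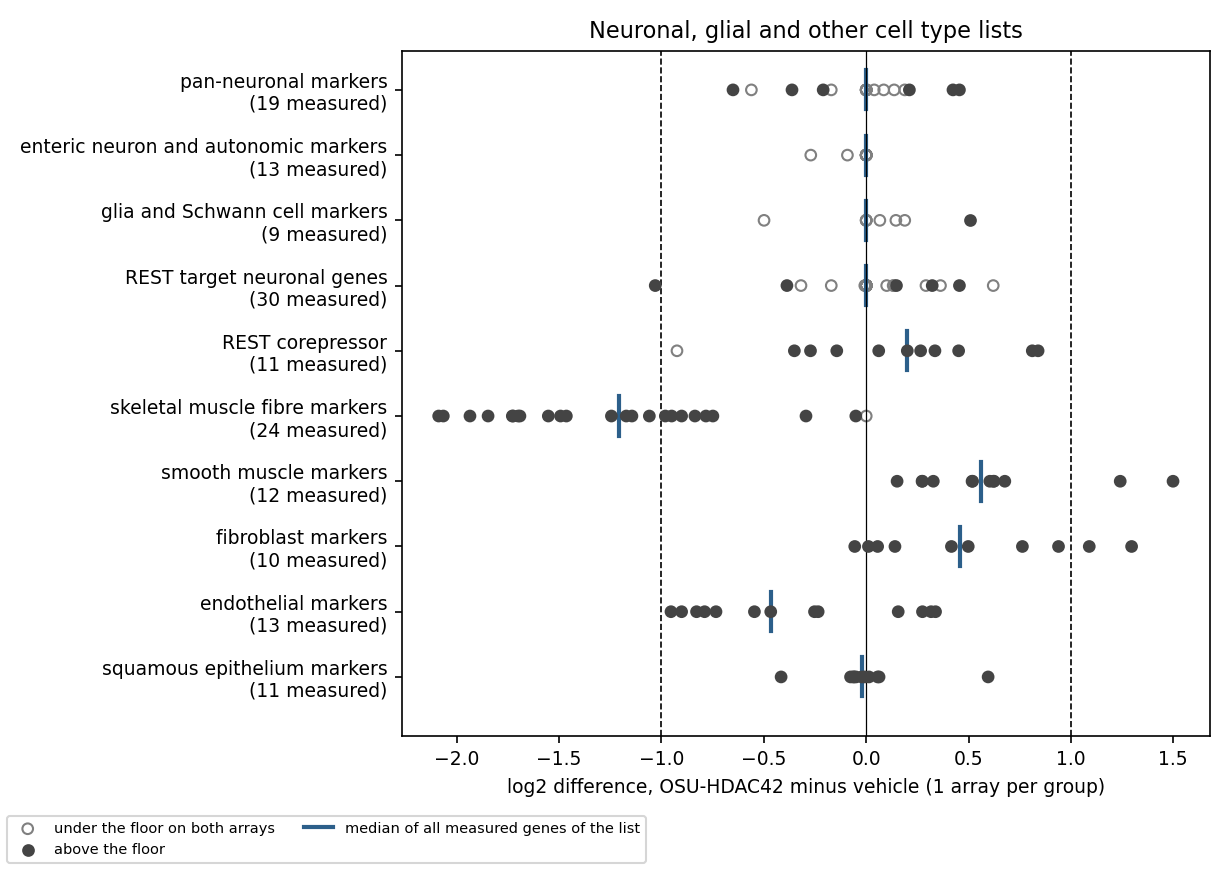
Log2 difference (OSU-HDAC42 minus vehicle, 1 array per group) of each gene in 10 lists of neuronal, glial, REST-linked and other cell type genes, drawn as filled points above the floor and open circles under it, with the list median as a blue bar. No gene of the neuronal, glial or REST lists passes 2-fold higher, and skeletal muscle markers lie to the left with a median of -1.21.

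For the whole arrays, intensities without controls ran from 4.54 to 14438 (OSU-HDAC42) and from 4.48 to 14947 (vehicle), with medians of 48.4 and 49.1. The ratio of 3′ to 5′ intensity, a measure of RNA integrity, was 6.29 against 7.76 for beta-actin and 2.09 against 2.32 for GAPDH. Both transcripts had the higher ratio on the vehicle array, and the part of RNA integrity in the differences was not tested. Probe sets of 1 gene, both above the floor, differed with a pooled SD of 0.29 (4908 probe sets of 2126 genes), which covers probe noise alone and not the spread between rats.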

How the data were processed

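The data are 2 arrays, 1 per group. The deposited values are linear probe set intensities, a unit read from their range; GCOS and RMA appear, with no role, per the submitters' processing notes, and how the authors scaled the arrays is not given in the sources used here. Trizol is the RNA extraction per the labels' protocols, but a column kit per the series' design. Of 31099 probe sets, 57 controls were left out; of the other 31042, 20826 had 1 gene symbol, 436 several and 9780 none, and 20758 of the 20826 matched a gene of the RefSeq table. A gene was read by its probe set with the highest mean log2 intensity. Values under 16, 28.4% (OSU-HDAC42) and 29.2% (vehicle) of probe sets, were raised to 16, log2 was taken, and a gene at or over 49.1 on its brighter array was above the floor. No test was possible. The members and the 23 gene lists (308 of 331 entries measured) were chosen with earlier results of these data known. Named genes were all members, all genes of the RGK, WASP and WAVE, Yippee-like and ARMCX families, up to 4 of each other list with the largest differences above the floor, and the 2 nearest neighbours of each member, of which the nearest are given; further list genes, such as markers under the floor, were named after their values were seen. Promoter windows came from RefSeq (GRCr8). Python 3.11.15, pandas 2.3.3 and statsmodels 0.14.6 were used, and the code was tested on simulated data. Alternatives were no raised values, values raised to 32, centring, quantile normalization, lowess, means over probe sets, and other floors and thresholds.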

Additional observations from a re-analysis of the deposited data

How the results depend on the processing

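All 7 members remained at least 2-fold higher under each of the alternatives run for them. Of their 49 alternative values 47 moved by less than the SD between probe sets. The exceptions were Ypel4 at 1.96 with values under 32 raised to 32 and Rem2 at 1.67 with the mean over all probe sets, an alternative chosen after seeing the data. Many of the 47 could not move. No brightest member probe set was under 16 on either array, and every member but Rem2 had only 1 probe set. The number of genes at least 2-fold higher ran from 136 to 191 against 180 under the scaling, raising and probe set alternatives. It was 75 with the floor at the 75th percentile, 725 at 1.5-fold and 31 at 3-fold, by construction. Probe sets at least 2-fold higher numbered 254, and 285 without a floor. The median over all genes was 0 under each scaling. No paired analysis was possible because neither group held more than 1 array. Low intensities limit Rrad and the other genes under the floor, and on the vehicle array 5 of the 7 members were under it.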

Other observations

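Of the 180 genes at least 2-fold higher, 57 (31.7%) were under the floor on the vehicle array, as were 5 of the 7 members. Such genes passed the floor through the OSU-HDAC42 array alone. The members were also picked on this contrast, so nothing is read from these shares. All 7 brightest member probe sets were annotated with a GenBank entry other than a RefSeq transcript, as were 85.9% of the 20826 probe sets with 1 gene symbol. Above the floor, 2.04% of such probe sets and 2.21% of those annotated with a RefSeq transcript were at least 2-fold higher. The median vehicle intensity was 90.2 for the former and 33.8 for the latter.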
